A study of Mus musculus with 34 samples.

Results

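Histone H3 acetylated at lysine 27 (H3K27ac) was compared between the macrophages that repopulate an emptied liver (RLM), sampled 24 h after toxin, and Ly6C-high monocytes of the blood. The comparison uses 4 of the 34 samples of the series, 2 libraries of each cell type, and was chosen by the sample titles alone. Of the 84647 regions in the deposited table, all of which entered, 80982 passed a filter on low counts and were tested. RLM came from Clec4f-cre/Rosa26iDTR mice given diphtheria toxin, in which the promoter of the Kupffer cell lectin gene Clec4f drives Cre and so places the toxin receptor on the cells that express Clec4f. Blood monocytes came from untreated C57BL/6J mice. Kupffer cells, the resident macrophages of the liver, are set beside both. Their 2 libraries carry the label C57BL/6J and no treatment, whereas the design text of the series names Clec4f-Cre/DTR mice for them. RLM and monocytes thus differed in tissue, in genotype and in toxin exposure, and the contributions of these differences cannot be told apart. Whether both libraries of a cell type stem from different animals is not stated in the labels, so p-values measure the spread between libraries, which may be technical.

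H3K27ac marks active promoters and enhancers, and its gain or loss at an enhancer is commonly read as the switching of that element. When Kupffer cells are killed, blood monocytes enter the liver, occupy the vacated niche along the sinusoids and over the following days take on the features of Kupffer cells. Signals described in that niche include Notch ligands and TGF-beta family ligands of endothelial and stellate cells, and sterols that activate the nuclear receptor LXR.

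Each region was about 2 kb long, and its level is given as CPM (tags per 1 M) over the scaled total of the tested regions. Depth was 7.37 and 9.47 M tags in RLM, 8.22 and 19.5 M in Kupffer cells, and 11.6 and 12.3 M in monocytes. Satellite repeats in 7 regions of chromosome 2 held 8.95% and 9.12% of tags in RLM, against 4.67% and 3.95% in monocytes. The libraries were checked against the labels with marker genes. Summed over its regions, C1qb, a macrophage gene for a chain of complement C1q, held 36.1 and 36.3 CPM in RLM, against 0.597 and 0.338 CPM in monocytes, and of all 16749 genes tested it had the largest log2 difference. The monocyte gene F5 held 8.35 and 10.98 CPM in RLM, against 59.4 and 72.5 CPM in monocytes. The Kupffer cell genes Clec4f and Timd4 did not pass the test by their sums. Tags come from whole populations, so fewer cells with a mark and less of the mark per cell cannot be told apart.

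Both gains and losses of acetylation were found. Of the tested regions, 6942 (8.57%) had more H3K27ac in RLM and 7399 (9.14%) had less by edgeR's quasi-likelihood test at a Benjamini-Hochberg adjusted p under 0.05 and a fold of at least 2. The median log2 difference was 1.63 over the higher and -1.47 over the lower regions, against 0.07 over all tested regions. The balance moved with the fit: 5260 regions were higher and 8060 lower when RLM and monocytes were fitted without Kupffer cells, and 1144 and 2104 among the 35098 regions that overlap no other. A log2 difference of at least 4 was reached by 106 higher and 12 lower regions. Both RLM libraries lay above both monocyte libraries in 6888 of the higher regions, and below both in 7388 of the lower ones.

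Promoter sequences were compared for short motifs by their letters. Of the promoters in the RefSeq table (GRCm38.p6, the assembly that mm10 names; 250 bases before to 50 after each start), 13988 lay in tested regions, 877 of them in higher and 1073 in lower ones. TGACGTCA, the palindromic CRE bound by CREB and ATF factors, was in 11 (1.25%) of the promoters in higher regions and 69 (6.43%) of those in lower regions, against 3.09% of the 13988 and 1.79% of all 32851 promoters in the table. Read the other way, 15.97% of the 432 promoters with these letters lay in lower regions and 2.55% in higher ones, against 7.67% and 6.27% of all 13988. Without clustered histone genes the share in lower regions was 15.2%. Counted as distinct regions, since starts of a gene or of opposed genes can share one, 54 of 355 regions were lower and 10 higher. CCAAT, on either strand the box bound by NF-Y, was in 31.5% of promoters in higher and 41.7% of those in lower regions, against 37.2% of the 13988. CACGTG, an E-box bound by MiT/TFE and other helix-loop-helix factors, was in 12.1% and 8.11%, against 10.2% of the 13988 and 7.15% of all in the table. GAGGAAG on either strand, the core of sites for the macrophage factor PU.1, was in 15.7% and 16.03%, against 14.3%. TGANTCA, bound by AP-1, was on either strand in 7.64% and 5.69%, against 5.25% of the 13988 and 7.81% of all in the table. These motifs and the genes printed next were chosen after values had been seen. A match is a description of letters and not a site of binding.

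The sequences below are the promoters with CACGTG and the largest gain (Abca1 and Rab20), those with TGACGTCA and the largest loss outside the histone clusters (Taf11, Paqr3 and Zfp473), and the histone promoter with TGACGTCA and the largest loss (H2bc11). They lie at chr4:53159846-53160145, minus strand, at chr8:11478591-11478890, minus strand, at chr17:27907695-27907994, minus strand, at chr5:97111547-97111846, minus strand, at chr7:44748568-44748867, minus strand and at chr13:22042948-22043247, plus strand. Capitals mark TGACGTCA, CACGTG, and CCAAT or its complement ATTGG, and no TGANTCA, the AP-1 letters, was in them. The sequences run 5′ to 3′ along the gene, and the start is the base after the first 250.
Abca1: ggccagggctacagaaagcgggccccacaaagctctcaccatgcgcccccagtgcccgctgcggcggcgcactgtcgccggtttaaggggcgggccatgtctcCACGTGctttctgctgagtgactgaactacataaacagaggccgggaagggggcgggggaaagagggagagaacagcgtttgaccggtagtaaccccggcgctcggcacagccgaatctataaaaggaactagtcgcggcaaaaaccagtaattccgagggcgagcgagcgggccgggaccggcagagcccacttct
Rab20: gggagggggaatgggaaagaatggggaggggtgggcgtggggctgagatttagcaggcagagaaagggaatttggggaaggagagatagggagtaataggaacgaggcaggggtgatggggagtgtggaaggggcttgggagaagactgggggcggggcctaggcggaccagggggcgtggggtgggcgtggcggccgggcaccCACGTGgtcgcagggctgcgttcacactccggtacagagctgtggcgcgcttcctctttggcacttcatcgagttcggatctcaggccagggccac
Taf11: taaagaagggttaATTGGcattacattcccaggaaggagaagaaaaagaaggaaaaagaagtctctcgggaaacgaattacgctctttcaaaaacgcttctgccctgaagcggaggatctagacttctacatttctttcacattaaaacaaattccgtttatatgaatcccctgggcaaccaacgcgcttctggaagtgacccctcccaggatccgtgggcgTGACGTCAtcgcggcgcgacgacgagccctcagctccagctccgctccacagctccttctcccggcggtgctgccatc
Paqr3: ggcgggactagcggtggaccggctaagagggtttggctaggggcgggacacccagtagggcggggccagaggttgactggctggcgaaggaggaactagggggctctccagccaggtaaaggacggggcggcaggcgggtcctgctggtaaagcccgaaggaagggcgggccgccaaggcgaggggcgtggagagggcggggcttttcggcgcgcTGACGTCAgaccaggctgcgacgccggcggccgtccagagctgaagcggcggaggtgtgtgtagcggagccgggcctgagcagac
Zfp473: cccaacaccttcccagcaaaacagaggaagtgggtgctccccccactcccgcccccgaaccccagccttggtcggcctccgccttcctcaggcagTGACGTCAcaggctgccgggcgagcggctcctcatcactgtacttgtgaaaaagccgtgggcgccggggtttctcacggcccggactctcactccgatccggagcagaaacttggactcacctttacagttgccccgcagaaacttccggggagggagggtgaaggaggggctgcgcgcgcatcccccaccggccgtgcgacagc
H2bc11: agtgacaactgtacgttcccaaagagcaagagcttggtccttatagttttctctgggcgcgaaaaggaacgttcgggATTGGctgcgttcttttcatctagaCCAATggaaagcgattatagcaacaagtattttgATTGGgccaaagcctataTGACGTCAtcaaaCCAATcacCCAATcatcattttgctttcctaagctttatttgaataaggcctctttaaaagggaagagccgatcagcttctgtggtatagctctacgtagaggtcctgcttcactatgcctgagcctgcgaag
At Taf11, which encodes a subunit of the general factor TFIID, the region over the promoter held 9.20 and 10.9 CPM in RLM, 14.3 CPM in Kupffer cells, and 42.1 and 33.8 CPM in monocytes (log2 difference -1.91, SE 0.25). TGACGTCA begins 28 bases upstream of its start, 35 upstream of that of Paqr3, 155 upstream of that of Zfp473 and 96 upstream of that of H2bc11, where CCAAT or its complement stands 5 times.

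The 2 directions were alike in median relative size, over regions already cut at a 2-fold minimum. Large differences were more often gains, since 419 higher and 173 lower regions reached a log2 difference of at least 3. In the median higher region monocytes held 32.1% of the RLM level, and in the median lower region RLM held 35.9% of the monocyte level. The median level at the higher regions was 6.502 CPM in RLM, 16.6 CPM in Kupffer cells and 1.82 CPM in monocytes. Monocytes held under 1 CPM at 1887 (27.2%) of these regions. At the lower regions the medians were 4.02 CPM in RLM, 4.59 CPM in Kupffer cells and 12.6 CPM in monocytes, and RLM held under 1 CPM at 303 of them (4.10%). The mean Kupffer cell level lay above that of RLM at 4968 (71.6%) of the higher regions. At the lower regions it lay below that of RLM at 3547 (47.9%) and above it at 3852. Over all tested regions the Kupffer cell mean lay above that of RLM at 49.0% and below it at 51.0%.

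**Figure D1:**
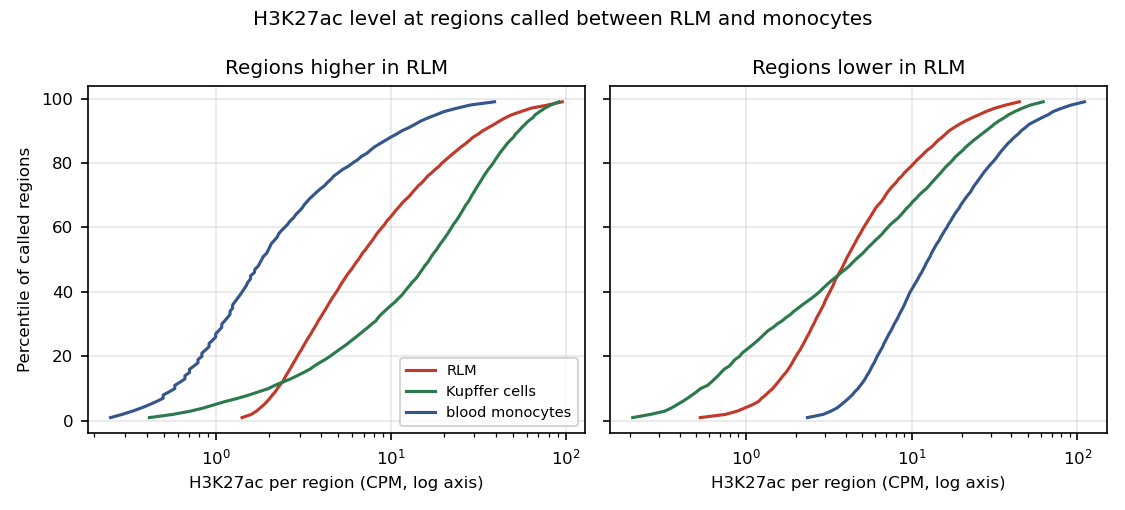
Percentiles of the mean H3K27ac level over 2 libraries (CPM, log axis) at the 6942 regions higher and the 7399 regions lower in RLM than in monocytes, in RLM, Kupffer cells and monocytes. At the higher regions the medians are 6.502 CPM in RLM, 16.6 CPM in Kupffer cells and 1.82 CPM in monocytes. At the lower regions they are 4.02 CPM in RLM, 4.59 CPM in Kupffer cells and 12.6 CPM in monocytes.

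The peak lists behind the gained and lost regions were also read. These lists rest on H3K27ac of the same cells. The shares thus follow in part from the levels that made the calls and are no separate evidence. The region names show which of the authors' peak lists contributed to each. A monocyte peak contributed to 47.7% of the higher and 92.1% of the lower regions, against 70.6% of all tested regions. The Kupffer cell list alone held 24.1% of the higher and 4.54% of the lower regions, against 17.4% of all. RLM peaks contributed to 70.5% of the higher and 72.3% of the lower regions, both near the 66.7% of all tested regions.

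Calls fell in promoters and in distal regions, with somewhat larger shares in the latter. Within 1 kb of an annotated start, 7.11% of 20574 tested regions were higher and 7.21% lower. Over 3 kb from a start, 8.68% of 53375 were higher and 9.86% lower. The median log2 difference of the called regions was 1.41 and -1.26 within 1 kb, and 1.69 and -1.56 over 3 kb from a start. Promoter and distal calls were then set side by side for each gene. Of 702 genes with a higher promoter region, 43.4% also had a higher distal region within 100 kb and 16.5% a lower one. Of 632 genes with a lower promoter region, 10.3% had a higher and 37.8% a lower distal region. Among 6415 genes with no promoter call the shares were 16.5% and 20.6%.

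Within 1 kb of a start, the largest gains included genes of complement, adhesion and the ID factors. The C1qb promoter (chr4:136885246-136887246, mm10) held 33.5 and 33.6 CPM in RLM, 68.7 CPM on average in Kupffer cells, and 0.579 and 0.330 CPM in monocytes. Its log2 difference was 6.17 (SE 0.35). Next came Sema6d, a semaphorin (log2 difference 5.21, SE 0.38), Tgm2, a transglutaminase (5.15, SE 0.28), the integrin gene Itga9 (4.93, SE 0.34) and the NAD-consuming ectoenzyme gene Cd38 (4.82, SE 0.30). Id3 encodes an inhibitor of helix-loop-helix factors that Kupffer cells need. A region 929 bp into Id3 (chr4:136143751-136145751) held 28.5 and 32.5 CPM in RLM, against 1.32 and 0.826 CPM in monocytes. In all 6, both RLM libraries exceeded the higher monocyte library several times over.

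Among regions over 3 kb from a start, the largest gains lay near genes of transcription factors, adhesion and small GTPases. A region 1987 bp from the start of Rasgef1b is in neither class and differed by 5.69 (SE 0.28), more than any of these. Upstream of Id2, which encodes a relative of ID3, a region at -5125 bp held 24.3 and 34.9 CPM in RLM, against 0.661 and 0.991 CPM in monocytes (log2 difference 5.15, SE 0.34). In an intron of Rxra, whose product RXR alpha pairs with LXR on DNA, a region 17558 bp from the start held 18.5 and 13.3 CPM in RLM, 32.3 CPM on average in Kupffer cells, and 0.496 and 0.578 CPM in monocytes. The others lay in or near Rasgef1b, an exchange factor of Ras-type GTPases (5.13, SE 0.33), Itga9 (4.91, SE 0.42), the small GTPase gene Rhob (4.73, SE 0.34) and Gdf15, a stress-induced member of the TGF-beta family (4.62, SE 0.34).

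The largest losses near starts included a gene of coagulation and one of glucocorticoid metabolism. The promoter of F5, the gene of coagulation factor V, held 2.10 and 3.05 CPM in RLM, against 20.1 and 27.8 CPM in monocytes (log2 difference -3.19, SE 0.34). Hsd11b1, whose enzyme regenerates active glucocorticoid, differed by -3.60 (SE 0.40). Gas7 (-3.66, SE 0.40), the cytochrome P450 gene Cyp2ab1 (-3.61, SE 0.30) and the aspartic protease gene Napsa (-3.12, SE 0.32) were of the same group.

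Distal losses were led by a region of Atg7. It lies in an intron of that gene, which encodes an enzyme of autophagy, and held 3.42 and 4.67 CPM in RLM, 1.86 CPM on average in Kupffer cells, and 76.2 and 91.7 CPM in monocytes (log2 difference -4.36, SE 0.27). One in Gas7 differed by -4.25 (SE 0.27), one near the peroxiredoxin gene Prdx6 by -4.24 (SE 0.45), one at the glycosyltransferase gene Mgat5b by -4.16 (SE 0.40) and one upstream of the transcription factor gene Foxq1 by -3.96 (SE 0.45). The region near Susd2 stood apart from these in Kupffer cells. It held 2.36 and 1.63 CPM in RLM, 21.5 CPM on average in Kupffer cells, and 25.04 and 36.7 CPM in monocytes.

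**Figure D2:**
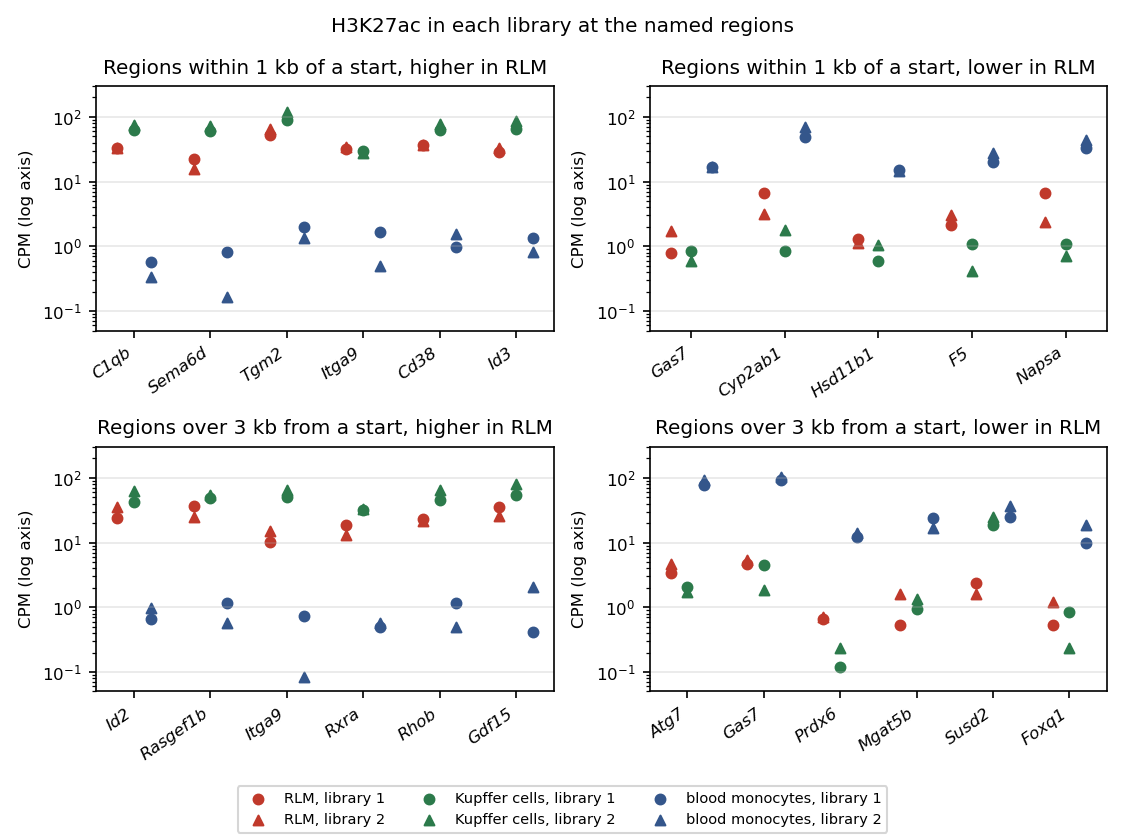
H3K27ac in each library (CPM, log axis) at genes with the largest differences per direction, within 1 kb and over 3 kb from a start. The 2 RLM libraries lie above both monocyte libraries in every panel of higher regions and below them in every panel of lower regions. Kupffer cells lie near monocytes at Susd2 only among the lower regions shown.

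Summed over the regions nearest to each gene within 100 kb of its start, 1038 of 16749 genes tested were higher in RLM (6.2%) and 972 were lower (5.8%), with a median log2 difference of 0.07 over all genes. A region near a gene need not regulate it. Among abundant genes, the largest gains were those of Rab20, a GTPase of endosomes and phagosomes (log2 difference 4.35, SE 0.21), and Spic, a factor of macrophages that clear red cells (4.15, SE 0.21). They were followed by Trim47 (3.50, SE 0.20), Id2 (3.36, SE 0.17), the sorting nexin gene Snx24 (3.20, SE 0.17) and Mertk, a receptor for apoptotic cells (3.10, SE 0.18). Gdf15 differed by 3.00 (SE 0.17), the cholesterol exporter gene Abca1 by 2.97 (SE 0.16), Vat1 and Itga9 by 2.76 each (SE 0.21 and 0.16), Rgs1, a brake on G protein signals, by 2.72 (SE 0.16), and the Notch target Hes1 by 2.70 (SE 0.21).

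RLM matched the Kupffer cell level at Rab20 and not at Spic. Rab20, whose 2 tested regions lie at its promoter, held 152 and 129 CPM in RLM, 131 CPM on average in Kupffer cells, and 6.22 and 7.52 CPM in monocytes. Spic held 75.4 and 72.6 CPM in RLM, 181 CPM in Kupffer cells, and 4.94 and 3.38 CPM in monocytes. The large losses included Msrb3, a methionine sulfoxide reductase gene (-3.09, SE 0.27), Pabpc1l (-2.99, SE 0.25), Fam25c (-2.94, SE 0.35), Tstd3 (-2.90, SE 0.22) and F5 (-2.76, SE 0.23). BB123696 (-2.61, SE 0.25), the lectin gene Clec1a (-2.49, SE 0.21), the fibronectin gene Fn1 (-2.49, SE 0.23), the orphan receptor gene Gpr12 (-2.45, SE 0.43), Gas7 (-2.44, SE 0.20) and Fgf1 (-2.43, SE 0.18) followed. Without the first RLM library Gpr12 no longer passed (-2.10, adjusted p = 0.0837 by the same edgeR test), where the lone RLM library was assumed to vary like the monocyte and Kupffer cell libraries. Many regions overlap, and summing only those that overlap no other left 511 of 13309 genes higher (3.84%) and 794 lower (5.97%). It turned the direction of Trim47 to -0.31, Hes1 to -1.02, Msrb3 to 0.44 and BB123696 to 0.29, while Fgf1 stood at 0.90 when only regions within 20 kb of the start were summed.

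Transcription factor genes of the lineage were among those that moved. Of 30 lineage factors, 9 were higher, 2 were lower and 19 did not pass, beside 6.2% of all genes higher and 5.8% lower. Their median log2 difference was 0.35. Counted over regions that overlap no other, 2 of 29 were higher and 3 lower (median 0.06), beside 3.84% and 5.97% of all genes. Beside Spic and Id2, the repressor gene Bhlhe41 rose by 2.47 (SE 0.22). Id3 rose by 1.58 (SE 0.15) and Bhlhe40 by 1.32 (SE 0.16). Klf2, a factor of quiescent circulating leukocytes, fell by 1.20 (SE 0.15), with 100 and 113 CPM in RLM, 333 CPM in Kupffer cells, and 270 and 223 CPM in monocytes. Nr4a1, which nonclassical monocytes need, fell by 1.18 (SE 0.15), with 152 and 168 CPM in RLM, 411 CPM in Kupffer cells, and 349 and 378 CPM in monocytes. At both genes Kupffer cells lay above RLM and above monocytes.

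The gene of LXR alpha was higher. Of 17 nuclear receptor genes tested, this gene, Nr1h3, alone was called, a share near that of all genes. With no minimum fold 8 were higher, beside 15.3% of all genes. All 3 regions of Nr1h3 were higher, by 1.70 to 2.58. The region at its start held 13.1 and 17.4 CPM in RLM, 39.2 CPM in Kupffer cells, and 2.31 and 2.81 CPM in monocytes. Of 15 AP-1 and ATF factors, Maff (1.51, SE 0.16) and Jdp2 (1.23, SE 0.15) were higher and none was lower, beside 6.2% and 5.8% of all genes. In regions that overlap no other 2 of 9 were higher and 2 lower, beside 3.84% and 5.97% of all genes. None of 4 MiT/TFE factors, regulators of lysosome genes, passed, and their log2 differences ran from -0.07 to 0.16.

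Components of the Notch and TGF-beta pathways were called one by one. Of 23 Notch pathway genes, 4 were higher and none lower (median 0.33), beside 6.2% of all genes higher and 5.8% lower. But in regions that overlap no other none of 21 was higher and 1 was lower (median 0.00), beside 3.84% and 5.97% of all genes. Hes1 encodes a repressor induced by Notch. Its strongest region, 1124 bp upstream of the start, held 62.1 and 51.5 CPM in RLM, 60.3 CPM in Kupffer cells, and 3.14 and 9.49 CPM in monocytes. Of its 10 regions 5 were higher, all within about 2.1 kb of the start, and 1 at 89.8 kb was lower. Dtx4, which encodes an E3 ligase of the pathway, rose by 1.91 (SE 0.20), to 81.5 and 71.7 CPM in RLM, against 40.7 CPM in Kupffer cells and 22.2 and 18.6 CPM in monocytes. The glycosyltransferase gene Lfng rose by 1.19 (SE 0.15). The target gene Hey1 rose by 1.13 (SE 0.19), and by 0.93 without the first RLM library, which is under the 2-fold minimum.

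Of 26 genes for TGF-beta and BMP receptors, SMADs and inhibitors, 3 were higher and 1 lower, with a median of 0.21, beside 6.2% and 5.8% of all genes. In regions that overlap no other 2 of 24 were higher and 1 lower (median -0.11), beside 3.84% and 5.97% of all genes. With no minimum fold 10 of the 26 were higher, beside 15.3% of all genes. The receptor gene Bmpr1a has 1 tested region, at its start. It held 1.71 and 3.05 CPM in RLM, 24.9 CPM in Kupffer cells, and 0.413 and 0 CPM in monocytes, a log2 difference of 3.49 (SE 0.62) that rests on few monocyte tags. Skil, which encodes a SMAD corepressor, rose by 1.40 (SE 0.15), and the receptor gene Tgfbr1 by 1.21 (SE 0.16). Pmepa1, an inhibitor of SMAD signalling, fell by 1.02 (SE 0.21). Without the second RLM library its difference was -0.95, and without the second monocyte library it was -0.90, both under the 2-fold minimum.

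Genes for handling lipids gained acetylation in larger number than they lost it. Of 29 cholesterol and lipid genes, 15 were higher and 1 was lower, beside 6.2% and 5.8% of all genes. Their median log2 difference was 1.04, against 0.07 over all genes. With overlapping regions left out, 7 of 27 were higher and 1 lower (median 0.54), beside 3.84% and 5.97% of all genes. Abca1 held 390 and 417 CPM in RLM, 894 CPM in Kupffer cells, and 53.5 and 49.8 CPM in monocytes, and 20 of its 25 regions were higher. Its partner in export Abcg1 rose by 2.53 (SE 0.16). Lpcat3, which remodels phospholipids, rose by 1.95 (SE 0.21), and the glycoprotein gene Gpnmb by 1.94 (SE 0.24). Synthesis genes were in the same group, with the desaturase genes Scd1 at 1.49 and Scd2 at 1.39.

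Complement, the uptake of dying cells, lysosomes and iron followed, with counts that stand beside 6.2% of all genes higher and 5.8% lower. Of 19 complement genes 7 were higher and none lower (median 0.70). Beside the 3 C1q chains C3ar1, a receptor gene for an anaphylatoxin, differed most (2.62, SE 0.18). Of 18 genes for the uptake of apoptotic cells 4 were higher and none lower (median 0.53), namely Mertk, its relative Axl (1.86, SE 0.21), their ligand gene Gas6 (1.83, SE 0.28) and the scavenger receptor gene Stab1 (1.36, SE 0.19). Of 30 lysosomal genes 5 were higher and none lower (median 0.49). The acid lipase gene Lipa rose by 1.89 (SE 0.15), and all 12 of its regions were higher. The cathepsin genes Ctsd (1.62, SE 0.15) and Ctsb (1.33, SE 0.15) and the protease gene Lgmn (1.10, SE 0.15) followed, and Lgmn stood at 0.96 without the first monocyte library. Of 17 iron and heme genes 5 were higher and none lower (median 0.43), led by the iron exporter gene Slc40a1 (2.24, SE 0.17), the heme transporter gene Slc48a1 (1.94, SE 0.18), the metal transporter gene Slc11a2 (1.55, SE 0.19) and the biliverdin reductase gene Blvrb (1.40, SE 0.20). Summed over regions that overlap no other, C3ar1 stood at -1.05, Ctsb at -0.44, Lgmn at -0.056 and Slc11a2 at -0.31. Of the lists, 3 of 17 complement genes were then higher and 1 lower (median 0.10). The same sums had 3 of 16 uptake genes, 2 of 24 lysosomal genes and 2 of 17 iron genes higher. Over all genes, 3.84% were then higher and 5.97% lower.

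**Figure D3:**
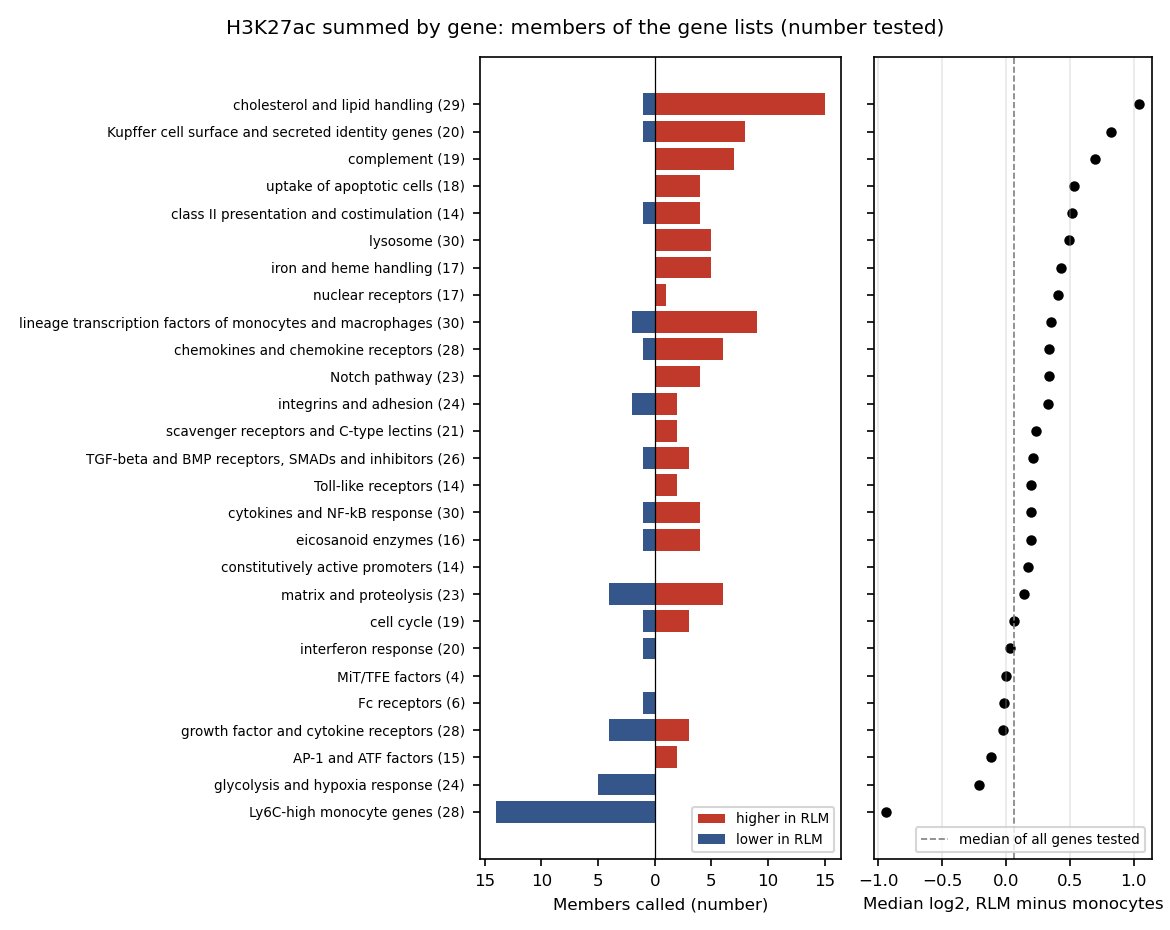
Members of each gene list called higher (right) or lower (left) in RLM than in monocytes, with the number tested in parentheses, and the median log2 difference of the list. Cholesterol and lipid handling has 15 higher members and a median of 1.04. The Ly6C-high monocyte list has 14 lower members and a median of -0.94, and the dashed line marks the median of all genes, 0.07.

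Genes of Kupffer cell identity were only partly engaged. Over all genes, 6.2% were higher and 5.8% lower. Of 20 surface and secreted genes, 8 were higher, 1 was lower and 11 did not pass, and without the second monocyte library 5 were higher. Their summed level was 582 and 566 CPM in RLM, 3933 and 4537 CPM in Kupffer cells, and 303 and 281 CPM in monocytes. Clec4f held 9.20 and 10.9 CPM in RLM, 249 CPM in Kupffer cells, and 5.88 and 4.90 CPM in monocytes, and its difference of 0.90 (SE 0.23) was under the 2-fold minimum. Without the first RLM library it was 1.00, which passed. Timd4, a receptor for phosphatidylserine, held 19.0 and 17.0 CPM in RLM, 278 CPM in Kupffer cells, and 16.02 and 9.63 CPM in monocytes. At its start RLM held 1.18 and 0.711 CPM, against 1.32 and 0.165 CPM in monocytes, so the libraries overlapped. Single regions were called at both genes. Of the 7 Clec4f regions 2 were higher, by 1.39 and 2.07, and of the 14 Timd4 regions 1 was, by 2.27. No region of Clec4f held over 1.95 CPM on average in RLM, and none of Timd4 over 1.99 CPM.

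Cd5l, which encodes a secreted scavenger protein of tissue macrophages, showed an order among its regions. The 4 higher regions lay 19.8 to 25.8 kb upstream of the start. One of them, at -23.7 kb, held 17.1 and 18.6 CPM in RLM, 55.1 CPM in Kupffer cells, and 4.13 and 4.62 CPM in monocytes. The region at the start held 1.97 and 2.44 CPM in RLM, 74.2 CPM in Kupffer cells, and 1.49 and 1.57 CPM in monocytes, and did not pass. The upstream group was thus higher in RLM while the start was not called.

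**Figure D4:**
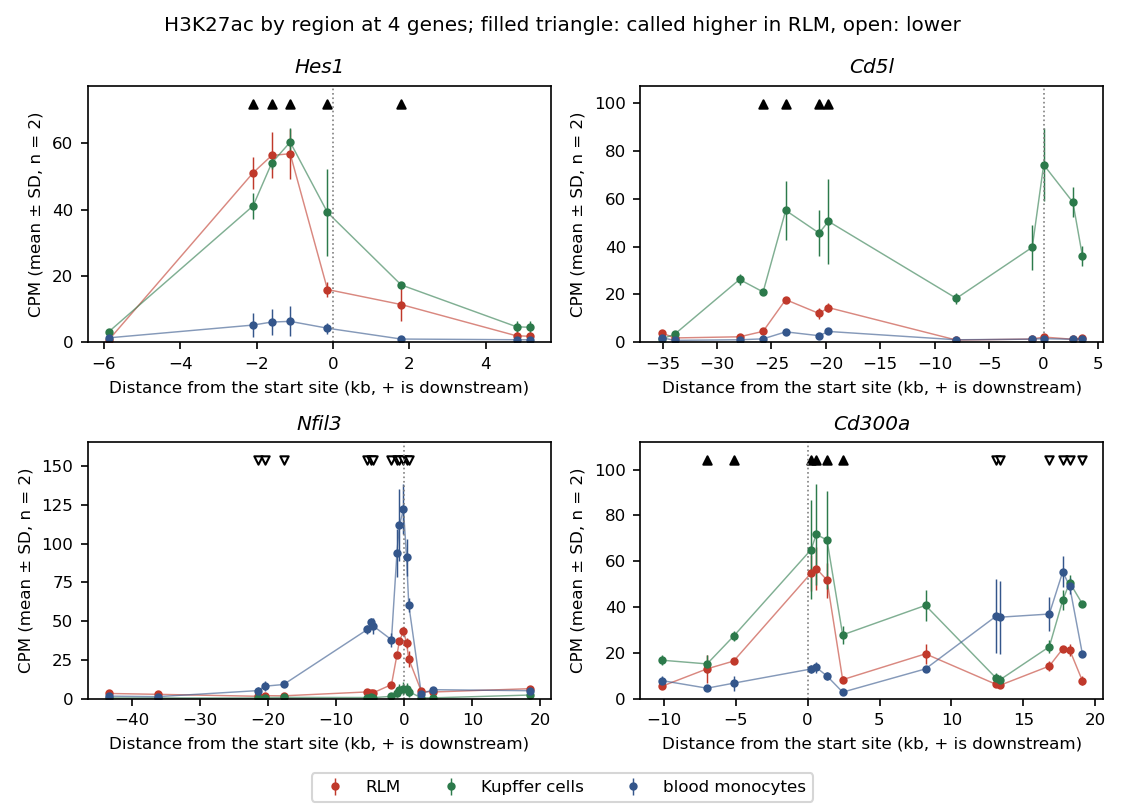
Mean H3K27ac (CPM, bars are SD of 2 libraries) in RLM, Kupffer cells and monocytes at each tested region, by its distance from the start of Hes1, Cd5l, Nfil3 and Cd300a. Filled triangles mark regions called higher and open triangles regions called lower in RLM. Hes1 regions near the start and Cd5l regions about 20 to 26 kb upstream are higher, Nfil3 regions are lower, and Cd300a has 6 of each.

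Monocyte genes lost acetylation. The share of all genes was 6.2% higher and 5.8% lower. Of 28 Ly6C-high monocyte genes tested, none was higher, 14 were lower and 14 did not pass, with a median of -0.94. Their summed level was 1359 and 1386 CPM in RLM, 1519 and 1590.2 CPM in Kupffer cells, and 2020.3 and 2104 CPM in monocytes. In regions that overlap no other 1 of 23 was higher and 7 were lower (median -0.67), beside 3.84% and 5.97% of all genes. RLM lay under Kupffer cells over the list, but not at each gene. The fibronectin gene Fn1 held 9.48 and 11.6 CPM in RLM, 0.413 CPM in Kupffer cells, and 50.5 and 68.4 CPM in monocytes. F10, the gene of coagulation factor X, held 45.6 and 39.3 CPM in RLM, 0.858 CPM in Kupffer cells, and 122 and 115 CPM in monocytes. At both genes RLM lay between the other cells. Mcemp1, a mast cell and monocyte surface protein gene, differed by -2.34 (SE 0.22).

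Ly6c2 and Ccr2 were not called by their sums. Ly6c2, which encodes the Ly6C antigen, had a summed difference of 0.72 that did not reach the 2-fold minimum, and it was -0.82 when only regions within 20 kb of the start were summed. Its promoter region was lower, at 3.94 and 3.05 CPM in RLM, 0.119 CPM in Kupffer cells, and 9.51 and 6.44 CPM in monocytes (log2 difference -1.20, SE 0.39). Ccr2 encodes the receptor that releases monocytes from marrow. Its start held 10.1 and 5.99 CPM in RLM, 1.12 CPM in Kupffer cells, and 5.12 and 7.60 CPM in monocytes, and the libraries overlapped. Nfil3, which encodes a basic leucine zipper factor, had 12 neighbouring lower regions. At its start it held 41.7 and 45.3 CPM in RLM, 6.41 CPM in Kupffer cells, and 111 and 133 CPM in monocytes.

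Inflammatory, antigen presentation and metabolic genes moved in parts. Their counts stand beside 6.2% of all genes higher and 5.8% lower, and those in regions that overlap no other beside 3.84% and 5.97%. Of 28 chemokine and chemokine receptor genes, 6 were higher and 1 was lower. Cxcl16 rose by 2.09 (SE 0.21), Ccl12 by 1.76 (SE 0.24) and Cxcl1 by 1.39 (SE 0.23), and the receptor gene Cx3cr1 fell by 1.03 (SE 0.18), or 0.87 without the first RLM library. In regions that overlap no other Ccl12 stood at -0.49, and 3 of 28 chemokine genes were higher and 2 lower. Of 30 cytokine and NF-kB response genes, 4 were higher and 1 was lower. Counted over regions that overlap no other, 1 of 24 was higher and none lower. Nfkbia, an inhibitor of NF-kB that NF-kB itself induces, rose by 1.96 (SE 0.15). Il18 has 1 tested region, at its start, which held 5.78 and 6.81 CPM in RLM, 27.3 CPM in Kupffer cells, and 22.3 and 25.2 CPM in monocytes (log2 difference -1.91, SE 0.27). Of 14 class II and costimulation genes, 4 were higher and 1 lower, or 3 and none in regions that overlap no other. H2-Eb1 held 187 and 139 CPM in RLM, against 19.7 and 39.3 CPM in monocytes, so the monocyte libraries themselves differed. Of 24 genes of glycolysis and the hypoxia response, none was higher and 5 were lower (median -0.21), among them the lactate exporter gene Slc16a3 (-1.69, SE 0.18), Ndrg1 (-1.45, SE 0.20), Bnip3 (-1.44, SE 0.22) and the glucose transporter gene Slc2a1 (-1.26, SE 0.15).

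Receptors, matrix and eicosanoid genes were called in both directions, beside 6.2% of all genes higher and 5.8% lower. Counts in regions that overlap no other stand beside 3.84% and 5.97%. Of 28 growth factor and cytokine receptor genes 3 were higher, led by Il10rb (1.54, SE 0.15), a subunit of the receptor for IL-10, and 4 were lower, led by Flt3, the receptor gene of early progenitors and dendritic cells (-1.79, SE 0.21). In regions that overlap no other Il10rb stood at -0.46 and Tgm2 at -1.17, and 4 of 24 receptor genes were higher and 2 lower. Of 23 matrix and proteolysis genes 6 were higher and 4 lower, and without the first monocyte library 7 were lower. Tgm2 rose by 2.19 (SE 0.16) and Mmp14, a membrane-bound protease gene, by 1.93 (SE 0.32). Of 16 eicosanoid genes 4 were higher, led by the prostaglandin D synthase gene Hpgds (2.08, SE 0.19) and the lysosomal phospholipase gene Pla2g15 (1.90, SE 0.17), and Alox5ap, a cofactor of leukotriene synthesis, fell by 1.10 (SE 0.15). Of 19 cell cycle genes 3 were higher, led by Ccnd1 (1.46, SE 0.17), and without the first monocyte library 1 was. Ccnd3 fell by 1.21 (SE 0.17). In regions that overlap no other, none of 15 cell cycle genes was higher and 2 were lower. Of 14 eicosanoid genes 2 were then higher and none lower, and of 21 matrix genes 4 were higher and 2 lower. None of 14 genes with constitutively active promoters, used as a check, passed by the sum of their regions (median 0.18). But with no minimum fold 4 were higher and 4 lower, beside 15.3% and 17.1% of all genes. Their promoter regions were not read apart.

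Markers of other cells were looked for beside these groups. Of 87 such markers 58 were tested, 3 were higher and 4 were lower, beside 6.2% and 5.8% of all genes. Pf4, a platelet factor gene, rose by 2.78 (SE 0.24), with 35.1 and 35.02 CPM in RLM, 38.8 CPM in Kupffer cells, and 5.54 and 4.65 CPM in monocytes. Ttr of hepatocytes rose to 7.64 and 5.82 CPM in RLM, against 2.98 and 1.69 CPM in monocytes. Summed over the tested markers, hepatocyte genes held 63.0 and 57.4 CPM in RLM, against 58.5 and 66.8 CPM in monocytes. Liver endothelium genes, of which 1 of 11 was higher (median log2 difference 0.49), held 106 and 115 CPM in RLM, against 111 and 92.3 CPM in monocytes. Stellate genes, of which none of 3 was called, held 15.6 and 14.9 CPM in RLM, against 17.9 and 28.6 CPM in monocytes. Neutrophil genes held 91.4 and 102 CPM in RLM, against 176 and 180 CPM in monocytes, and lymphocyte genes 184 and 179 CPM, against 273 and 368 CPM. Erythroid and megakaryocyte genes held 117 and 107 CPM in RLM, 73.6 and 87.1 CPM in Kupffer cells, and 61.5 and 70.9 CPM in monocytes (median log2 difference 0.81). The stellate, neutrophil, lymphocyte and erythroid sums moved with the comparison, and the part of other cells in the gains and losses was not tested.

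Called regions formed runs, and those with the most regions were gains. Regions called in the same direction with centres at most 12.5 kb apart were joined. Of all regions 55.2% overlap another, so the number of regions in a run does not give its length. Runs of 10 or more regions numbered 34 among the gains and 8 among the losses, while runs of 3 or more numbered 771 and 800. The gained run with the most regions, 19, covered 46.1 kb of Frmd4b (chr6:97419247-97465346). It held 282 and 306 CPM in RLM, 723 and 972 CPM in Kupffer cells, and 74.6 and 79.5 CPM in monocytes, sums that count bases shared by overlapping regions more than once. Runs at Gdf15 with its neighbours Lrrc25 and Pgpep1 (18 regions), at Arhgap25 (16), at Cd38 and Bst1 (16) and at A930007I19Rik (15) followed. The run at Cd38 held 147 and 149 CPM in RLM, against 18.5 and 16.5 CPM in monocytes.

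Among the losses, a run of 14 regions covered 57.0 kb of the histone gene cluster on chromosome 13 (chr13:23530033-23587012). It held 267 and 265 CPM in RLM, 406 and 611 CPM in Kupffer cells, and 564 and 714 CPM in monocytes. Replication-dependent histone genes are near-identical copies, so tags could be placed on the wrong copy. This group was looked at after the run had been seen. Of 45 promoters of clustered histone genes on chromosome 13 that lay in tested regions, 34 were in lower and none in higher regions, with log2 differences from -2.53 to -0.35. Of 8 such promoters on other chromosomes 1 was in a lower region, with differences from -1.23 to -0.37. Of all promoters in tested regions 7.67% lay in lower ones. The other lower runs with the most regions were at Emilin2 (14), the TNF receptor gene Tnfrsf1b (12), Nfil3 (12) and Crlf2, a cytokine receptor gene (12). At Crlf2 the regions overlap and the run spans 10.1 kb only.

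Of 16672 genes with tested regions, 2761 had at least 1 higher region and 3207 at least 1 lower one. Both kinds were found at 531 genes, and whether this number departs from what the 2 counts alone would give was not tested. Of these genes 21 were called higher and 32 lower by their sum, so most of them did not appear among the called genes. Fos, an immediate early gene, had 8 higher and 10 lower regions of 38, and the forkhead factor gene Foxp1 had 3 higher and 14 lower of 61. At Foxp1 a region 1174 bp upstream of the start held 4.86 and 5.38 CPM in RLM, against 51.9 and 61.4 CPM in monocytes, and 1 in an intron at 24.7 kb held 7.62 and 9.35 CPM in RLM, against 1.74 and 2.56 CPM in monocytes. The receptor gene Cd300a had 6 of each kind among 14. Its region at 1.3 kb held 57.2 and 46.3 CPM in RLM, against 8.68 and 11.1 CPM in monocytes, while the region at 13.4 kb held 6.57 and 5.18 CPM in RLM, against 24.3 and 46.8 CPM in monocytes. Rasgef1b (16 higher and 5 lower), Tbc1d2b (13 and 4), Irf2bp2 (9 and 5), Arhgap25 (16 and 2) and Fam49a (6 and 5) were of the same kind.

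A minority of changes pointed away from Kupffer cells. Over all 80982 tested regions the Kupffer cell mean lay below that of monocytes at 41691 and above it at 39290. The calls themselves select regions by their monocyte level, so the shares below are not independent of them. At 386 (5.56%) of the higher regions the Kupffer cell mean lay below that of monocytes. Ranked by their difference, they were led by Gpnmb, where a region 578 bp from the start held 15.2 and 16.1 CPM in RLM, 1.42 CPM in Kupffer cells, and 1.57 and 1.49 CPM in monocytes. The promoter of Cd63, a tetraspanin of late endosomes, held 14.8 and 11.7 CPM in RLM, 0.976 CPM in Kupffer cells, and 1.32 and 2.56 CPM in monocytes. A distal region nearest to Slc7a11, the gene of a cystine importer, held 13.7 and 11.5 CPM in RLM, 0.534 CPM in Kupffer cells, and 0.827 and 2.64 CPM in monocytes. At 995 (13.4%) of the lower regions the Kupffer cell mean lay above that of monocytes. The overlapping promoter regions of Bco2 and Il18 were among them, as was a region nearest to Hgsnat, a lysosomal acetyltransferase gene, with 5.65 and 3.45 CPM in RLM, 30.3 CPM in Kupffer cells, and 21.4 and 21.5 CPM in monocytes. These genes, Klf2, Nr4a1 and the loci shown by distance from the start were chosen after their values were seen.

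Binding of liver niche factors in other cells was set beside the called regions. LXR, SMAD4, the common partner of TGF-beta and BMP signals, and RBPJ, the DNA-binding partner of Notch, had been profiled in macrophages grown from bone marrow (BMDM) and in Kupffer cells, for SMAD4 and RBPJ in their nuclei, from mice labelled Clec4f-cre, but not in RLM or monocytes. A peak counted where both libraries of a factor had a peak centre within the region. Of the 4634 higher regions over 3 kb from a start, 60.5% held an LXR peak of Kupffer cells, as did 44.0% of the 5265 lower and 35.2% of all 53375 such regions. SMAD4 peaks of Kupffer cell nuclei were in 46.8% of higher, 38.1% of lower and 26.8% of all. Regions within 1 kb of a start did not show this order against all tested regions: LXR peaks were in 61.0% of higher, 56.9% of lower and 62.3% of all, and SMAD4 peaks of nuclei in 63.2%, 55.8% and 62.7%. Away from starts, RBPJ peaks of nuclei, of which 13394 and 11277 were listed, were in 13.8%, 11.9% and 8.27%.

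In BMDM the order of higher and lower regions was different for 2 of the factors. LXR peaks of BMDM given the LXR agonist GW3965 were in 52.7% of higher, 49.5% of lower and 32.3% of all distal regions. SMAD4 peaks of untreated BMDM were in 37.7% of higher and 41.7% of lower regions, and RBPJ peaks in 70.9% and 83.0%, against 25.1% and 65.4% of all. The Wilson 95% interval of the LXR share in Kupffer cells was 59.1% to 61.9% over higher and 42.6% to 45.3% over lower regions, and such intervals cover counting error only, since neighbouring regions overlap. With a peak in at least 1 library in place of both, the LXR shares in BMDM were 69.8% and 71.5%, in the opposite order. All tested regions had medians of 2.88 CPM in RLM and 2.89 CPM in monocytes. These lay under those of RLM at higher regions and of monocytes at lower ones. Kupffer cells held medians of 16.6 CPM at the higher, 4.59 CPM at the lower and 4.50 CPM at all tested regions. The medians are not limited to distal regions, and the part of signal level in these shares was not tested.

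**Figure D5:**
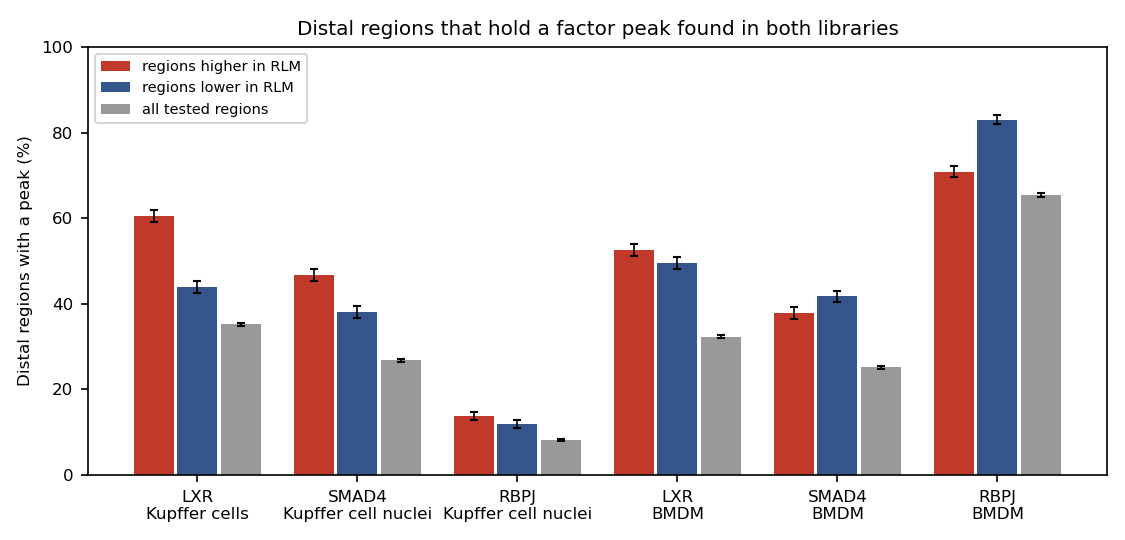
Share of regions over 3 kb from a start that hold a peak of LXR, SMAD4 or RBPJ found in both libraries, for regions higher in RLM, regions lower in RLM and all tested regions, with Wilson 95% intervals. LXR peaks of Kupffer cells are in 60.5% of higher and 44.0% of lower regions. RBPJ peaks of BMDM are in 70.9% of higher and 83.0% of lower regions.

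Peak heights were read at the named regions. By the authors' normalized tag counts, scaled to 10 M tags, the C1qb promoter held LXR peaks of 154 and 55.8 and SMAD4 peaks of 96.6 and 95.3 in Kupffer cells, with RBPJ peaks of 14.2 in both libraries. Sema6d held LXR peaks of 99.0 and 51.8 and SMAD4 peaks of 132 and 167, and Cd38 LXR peaks of 156 and 48.1. Of the lower promoters, those of Napsa, F5 and Hsd11b1 held no listed peak of the 3 factors in Kupffer cells. Not all named regions split in this way. The higher Itga9 promoter and Id3 region held no LXR peak in Kupffer cells, and SMAD4 peaks (17.9 and 62.8) in the first library only. The lower Cyp2ab1 promoter held LXR peaks of 16.7 and 7.46. The lower region near Susd2 held LXR peaks of 34.2 and 9.77 and SMAD4 peaks of 44.9 and 39.4. In BMDM the C1qb promoter held LXR peaks of 168.5 and 132. Per the file headers, the input of the second Kupffer cell LXR library is named for a NASH diet, and a single input was used for SMAD4 (second library) and RBPJ (first library) of nuclei.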

How the data were processed

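H3K27ac ChIP-seq of RLM, Kupffer cells and blood monocytes was used as raw tag counts in merged peak regions, as deposited by the authors, and depth ran from 7.37 to 19.5 M tags. Per the submitters' processing notes, Bowtie2, HOMER and mm10 were used, with no roles or versions given. Peak heights of LXR, SMAD4 and RBPJ are a signal, the normalized tag count of HOMER peaks called for each library against 1 input, per the file headers. Counts were fitted with edgeR 4.0.16 (TMM scaling, filterByExpr, robust quasi-likelihood) over 6 libraries, and RLM were tested against monocytes with Benjamini-Hochberg adjustment. SE is the log2 difference over the root of F. Gene values sum the regions nearest to a gene within 100 kb of its start by the deposited annotation, with CPM over gene totals. Named genes are the largest called differences with separated libraries and a level above the median of called features (6 regions per class, 12 genes, 4 per list, 5 runs and 8 genes with both directions), and others were chosen after their values were seen. Some genes that the rule names are not reported here. The members and lists were chosen with earlier results of these data known. The alternatives were DESeq2 1.42.0, other scaling, filters and region sets, a replicate block and each library left out. R 4.3.3 and Python 3.11.15 were used. A simulated count set with known changes was used to check the fit. Intervals cover counting error only.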

Additional observations from a re-analysis of the deposited data

How the results depend on the processing

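The counts of higher and lower regions (6942 and 7399) and genes (1038 and 972) stayed within 1.5 times their value under DESeq2, scaling by total tags, no filter on low counts, the fit of RLM and monocytes alone (857 and 1116 genes), and omission of the satellite block. Same-numbered libraries did not deviate together (correlation -0.0092), and a replicate block gave 6719 and 7224 regions and 1026 and 963 genes. With each library left out in turn, higher regions numbered 5724 to 6951, lower regions 6419 to 8251, higher genes 822 to 1198 and lower genes 991 to 1221. Keeping only regions that overlap no other left 1144 higher and 2104 lower regions and 511 higher genes, out of fewer tested. With no minimum fold, 2568 genes were higher and 2862 lower. Of 52 named regions, 51 kept direction and call in each alternative that held them, though only 8 overlap no other region. Of 120 named genes, 54 kept both in every alternative and 66 changed in at least 1, among them 43 that lost their call and 15 that turned in regions that overlap no other. In regions that overlap no other the direction turned for Trim47 (-0.31), Hes1 (-1.02), Msrb3 (0.44), BB123696 (0.29), Ly6c2 (-1.23), Adam19 (0.89), C3ar1 (-1.05), Ccl12 (-0.49), Ctsb (-0.44), Il10rb (-0.46), Itgb7 (0.91), Lgmn (-0.056), Slc11a2 (-0.31), Tgm2 (-1.17) and Unc93b1 (-0.10), which sum fewer regions there. Within 20 kb of the start it turned for Fgf1 (0.90), Ly6c2 (-0.82), Itgb8 (0.13) and Pmepa1 (1.33). Shares of distal regions with a peak moved with the peak rule. With a peak in at least 1 library they were 79.0% of higher and 65.9% of lower regions for LXR, 70.8% and 60.6% for SMAD4 and 34.98% and 31.9% for RBPJ in Kupffer cells, and 69.8% and 71.5% for LXR, 60.8% and 69.0% for SMAD4 and 80.5% and 91.4% for RBPJ in BMDM, so the order turned for LXR in BMDM. With the peak within 500 bp of the region centre they were 51.0% and 36.6%, 38.7% and 31.4%, and 9.95% and 9.25% for LXR, SMAD4 and RBPJ in Kupffer cells, and 44.4% and 41.7%, 30.6% and 34.2%, and 61.9% and 74.9% in BMDM. The cause was not tested.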
